A study of Mus musculus with 2 samples.

Results

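Tuft cells are rare chemosensory cells of the gut lining, and 9 genes that mark them or carry out their work were followed here in whole mouse colon: Pou2f3, Dclk1, Gnat3, Trpm5, Avil, Sh2d6, Il25, Alox5ap and Ptgs1. The genes were given by name and found by symbol among the 43346 Ensembl genes of the gene tables and in the transcript tables, and all 9 were present in both libraries. The colons came from adult C57BL/6J mice aged 8 weeks, with no mutation or treatment given in the labels. The labels name pooled male and female littermates and 1 donor record for both libraries, with a tissue sample record for each. RNA was polyadenylated, longer than 200 nt and depleted of ribosomal RNA, received spike-ins, and was read from both ends at 76 nt as stranded libraries. There was 1 group of 2 libraries, and the comparison made is of replicate 1 with replicate 2, which compares libraries and not conditions.

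A tuft cell senses substances in the gut lumen through receptors coupled to a G protein such as gustducin, which leads by way of phospholipase C and calcium to the opening of the cation channel Trpm5. The cell then releases interleukin 25, which acts on group 2 innate lymphoid cells, as well as leukotrienes and prostaglandins made from arachidonic acid. Pou2f3 is the transcription factor that tuft cells need in order to form, and Dclk1 is their most used marker in the mouse. In a whole tissue, fewer cells of a type and less RNA per cell cannot be told apart.

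The libraries held 46689262 expected counts in replicate 1 and 45966841 in replicate 2, that is, reads assigned to features by estimation. They differed in features that the labels do not separate. Replicate 1 had 0 counts of 4 Y-linked genes and 8721 counts of Xist, against 1382 and 12 counts in replicate 2, although both are labelled as pools of both sexes, so these were not repeat libraries of 1 mixed pool. The spread between them is that of these libraries alone. The 9 pancreatic acinar marker genes took 0.0449% of all TPM (the deposited level per length of transcript, scaled to one total in each library) in replicate 1 and 3.12% in replicate 2. They were led by Ctrb1, Cela2a and Prss2, followed by Cela1, Pnlip, Cpa1, Cel, Cpb1 and Amy2b, and all 9 were called lower in replicate 1. In replicate 1 Cela1 held 423 TPM of the list's 449 TPM, and it had 2606 TPM in replicate 2. Ctrb1 had 12.5 TPM in replicate 1 and 12054 TPM in replicate 2. A gene was called when it differed at least 2-fold with an adjusted p of 0.05 or less in an exact binomial test of the counts, which held for 6.11% of all genes tested. With those 9 genes taken out of the total, the tuft cell genes summed to 79.0 TPM in replicate 1 and 85.3 TPM in replicate 2, close to the values below. Whether either difference touches the tuft cell genes was not tested beyond that.

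The tuft cell genes spanned more than 2 orders of magnitude and were led by the eicosanoid genes. Together they summed to 78.96 TPM in replicate 1 and 82.68 TPM in replicate 2 (80.8 ± 2.63 TPM, SD, n = 2), from 4501 and 4171 counts. Ptgs1 made up 44.2% of that sum in replicate 1 and 54.9% in replicate 2. Without it the sums were 44.0 TPM and 37.3 TPM. Of the 9 genes, 6 reached 1 TPM in both libraries, a level met by 30.7% of all Ensembl genes and by 57.9% of protein-coding genes. The other 3, Il25, Pou2f3 and Gnat3, were under 1 TPM in both. Dclk1, the marker, ranked 5 of the 9 by mean TPM, and Pou2f3, the lineage factor, ranked 8. The RNA came from whole tissue, so the cells behind each level are not resolved.

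In order of mean TPM the genes ran Ptgs1, Alox5ap, Sh2d6, Trpm5, Dclk1, Avil, Il25, Pou2f3 and Gnat3. The deposited tables give a lower and an upper bound for each TPM, at a level not given in the sources used here. By these bounds Il25 and Pou2f3 overlapped in both libraries, and Il25 was the higher of them in replicate 1 and the lower in replicate 2. Alox5ap and Sh2d6 overlapped in replicate 1 alone, Dclk1 and Avil in replicate 2 alone, and Avil and Il25 in replicate 1 alone. Every other pair of neighbours was apart in both libraries.

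**Figure D1:**
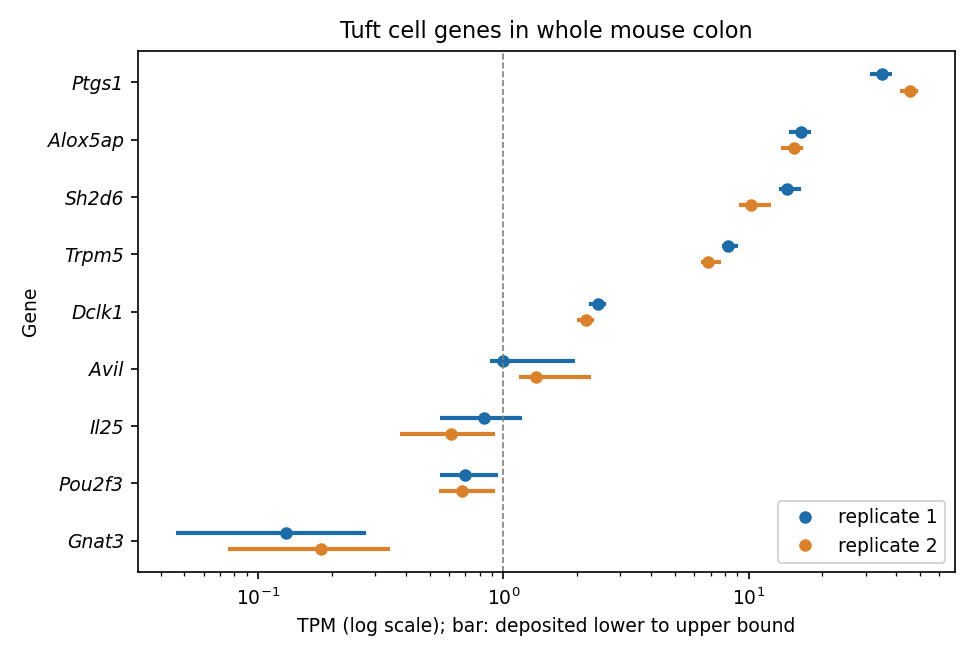
TPM of each of the 9 tuft cell genes on a log axis, with a point for each library and a bar from the deposited lower to the upper bound; the dashed line stands at 1 TPM. Ptgs1 is highest at 34.9 TPM in replicate 1 and 45.4 TPM in replicate 2, Gnat3 is lowest at 0.13 and 0.18 TPM, and the bars of the libraries overlap for 6 of the 9 genes.

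Pou2f3 (ENSMUSG00000032015.11, chr9:43123939-43210369 in mm10, minus strand) encodes the POU-family transcription factor of the lineage. It stood at 0.70 TPM in replicate 1, with bounds of 0.551 and 0.946, and at 0.68 TPM in replicate 2, with bounds of 0.545 and 0.927. Each library had 59 counts of it, so the libraries were alike within counting error. The log2 ratio of scaled counts, replicate 1 over replicate 2, was -0.03 with an exact 95% interval of -0.58 to 0.51. Only 38.0% of the 21474 protein-coding genes had a lower mean TPM. Its main transcript, Pou2f3-201, took 86.4% of the gene's TPM in replicate 1 and 100% in replicate 2. The other 13.7% of replicate 1 lay on Pou2f3-202, from 5.98 estimated counts.

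Other factors of the lineage were mostly higher. Of 12 found, 11 reached 1 TPM in both libraries and none of the 12 was called between the libraries, with a median log2 ratio of -0.04. Atoh1, the factor of the secretory lineage, had 101 TPM in replicate 1 and 106 TPM in replicate 2. Sox9, a factor of crypt progenitors, had 53.6 and 59.3 TPM, and Sox4 had 23.0 and 19.9 TPM. These 3 are shared with other cells of the crypt. Gfi1b, which in the gut epithelium is known from tuft cells, had 1.03 TPM in replicate 1 and 1.12 TPM in replicate 2, close to Pou2f3 itself. The relatives Pou2f1 and Pou2f2, which are not confined to tuft cells, had 12.9 and 3.11 TPM in replicate 1 and 12.1 and 2.41 TPM in replicate 2.

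The promoter windows of the members were searched for the octamer ATGCAAAT, which POU factors of this class are known to bind, and for its first 7 letters, ATGCAAA, on both strands. A RefSeq window of GRCm38.p6, most of it upstream of an annotated start, was at hand for 6 of the 9 members, 7 windows in all, with Dclk1 having a pair and Pou2f3, Il25 and Alox5ap none. The octamer was in 0 of the 7 windows and in 1.74% of all 32851 windows of that length. The 7 letters, which every octamer also holds, were in 1 of the 7 windows and in 4.63% of all windows. That window belongs to Avil and holds them in 2 places, starting 15 bases before the annotated start on the gene's strand and, read on the opposite strand as TTTGCAT, 115 bases before it. The window at chr10:127000459-127000758, plus strand, is shown for these matches, which are in capitals; a match is a description and not a binding site.
Avil promoter: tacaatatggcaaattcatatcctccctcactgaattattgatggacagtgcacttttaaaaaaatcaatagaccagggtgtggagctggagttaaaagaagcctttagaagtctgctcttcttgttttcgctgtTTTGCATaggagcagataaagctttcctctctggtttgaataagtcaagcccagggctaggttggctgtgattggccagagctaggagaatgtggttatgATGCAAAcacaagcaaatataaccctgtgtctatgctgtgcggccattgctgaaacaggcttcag

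Dclk1 (ENSMUSG00000027797.11, chr3:55242364-55539068, plus strand) encodes a protein kinase whose long form also carries doublecortin domains, which bind microtubules. It stood at 2.44 TPM in replicate 1, with bounds of 2.24 and 2.62, and at 2.18 TPM in replicate 2, with bounds of 1.99 and 2.35. The counts were 645 and 573, and the log2 ratio was 0.14 with an exact 95% interval of -0.03 to 0.30. The libraries overlapped, and 47.8% of protein-coding genes were lower. RefSeq gives Dclk1 an outer and an inner start 219 kb apart, and both promoter windows are shown because the transcripts split between them; capitals mark the bases from the annotated start on. The outer window is chr3:55242114-55242413 and the inner window chr3:55461478-55461777, both on the plus strand.
Dclk1 outer promoter: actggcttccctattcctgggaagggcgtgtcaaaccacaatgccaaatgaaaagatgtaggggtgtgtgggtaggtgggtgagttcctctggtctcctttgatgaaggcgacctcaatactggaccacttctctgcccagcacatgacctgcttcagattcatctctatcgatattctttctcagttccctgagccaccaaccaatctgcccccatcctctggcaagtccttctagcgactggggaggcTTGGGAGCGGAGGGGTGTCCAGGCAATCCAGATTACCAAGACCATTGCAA
Dclk1 inner promoter: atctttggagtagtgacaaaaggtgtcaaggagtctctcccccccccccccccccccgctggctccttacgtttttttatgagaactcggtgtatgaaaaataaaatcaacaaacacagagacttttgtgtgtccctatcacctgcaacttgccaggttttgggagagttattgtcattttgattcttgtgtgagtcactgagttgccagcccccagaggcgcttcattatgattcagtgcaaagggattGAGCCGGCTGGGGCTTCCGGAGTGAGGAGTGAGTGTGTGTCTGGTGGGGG

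All 3 annotated Dclk1 transcripts had reads, and the long form led. Dclk1-201, the long kinase form from the outer start, had 1.63 TPM in replicate 1 and 1.55 TPM in replicate 2, or 67.0% and 71.2% of the gene. Dclk1-202, the short kinase form from the inner start, had 0.48 TPM and 0.36 TPM, or 19.8% and 16.6%. Dclk1-203, which starts like the long form and ends before the kinase part, had 0.32 TPM and 0.27 TPM. The outer start thus carried 80.2% of the TPM in replicate 1 and 83.4% in replicate 2, and forms that include the kinase carried 86.8% and 87.8%. The long form was 3.40 times the short form in replicate 1 and 4.31 times in replicate 2. Bounds of the long and the short kinase form did not overlap in either library, while those of Dclk1-202 and Dclk1-203 overlapped in both.

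The 3 Dclk1 coding sequences differ at defined places, which are shown to tell the forms apart. Most of each transcript is untranslated, so the estimates also draw on reads outside these stretches. In GENCODE vM21, Dclk1-201 has 756 codons, Dclk1-202 has 422 and Dclk1-203 has 363. The first 938 bases of the Dclk1-201 coding sequence are replaced in Dclk1-202 by 17 bases of its own. Dclk1-202 also lacks 48 bases of the long form and gains 74 bases near its end, and past the last bases they share the long form reads on for 107 bases more. Dclk1-203 shares its first 1035 bases with the long form and closes with 57 bases of its own. Capitals mark the bases that the form named does not share with the other of its pair, and lower case marks what both hold.
Dclk1-202 start: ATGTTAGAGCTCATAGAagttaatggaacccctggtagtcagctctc
Dclk1-201 stretch absent from Dclk1-202: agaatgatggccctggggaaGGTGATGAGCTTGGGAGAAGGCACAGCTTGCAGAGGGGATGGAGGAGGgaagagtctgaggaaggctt
Dclk1-202 added stretch: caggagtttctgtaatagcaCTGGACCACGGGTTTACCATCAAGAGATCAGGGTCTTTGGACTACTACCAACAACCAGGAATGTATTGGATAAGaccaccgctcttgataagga
Dclk1-201 passing the branch point: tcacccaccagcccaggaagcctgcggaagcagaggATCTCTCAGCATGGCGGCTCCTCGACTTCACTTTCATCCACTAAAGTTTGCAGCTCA
Dclk1-203 end: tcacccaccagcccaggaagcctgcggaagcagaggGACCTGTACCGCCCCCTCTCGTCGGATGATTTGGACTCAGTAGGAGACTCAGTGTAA

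Among the relatives of Dclk1, Dclk2 was the closest, with 64.1% identical coding bases, and stood above Dclk1 in both libraries, at 5.40 TPM in replicate 1 and 4.44 TPM in replicate 2. No stretch of 76 bases, the length of a read, was common to Dclk1 and Dclk2 or to any other member and its listed relatives. Dcx, the doublecortin gene of young neurons, had 2 counts in replicate 1 and 3 counts in replicate 2. Enteric neuron markers, which are of interest because neurons also use Dclk1, summed to 91.7 TPM in replicate 1 and 84.5 TPM in replicate 2 over 9 genes, of which 6 reached 1 TPM in both libraries. They were led by Uchl1 at 38.1 TPM and 30.5 TPM, Tubb3 at 21.8 and 22.7 TPM and Prph at 14.7 and 14.4 TPM. The part of neurons in the Dclk1 level was not tested.

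Gnat3 (ENSMUSG00000028777.7, chr5:17962549-18019834, plus strand) encodes the alpha subunit of gustducin, the G protein of taste cells. It was the lowest member, with 0.13 TPM from 5 counts in replicate 1 and 0.18 TPM from 7 counts in replicate 2. The bounds ran to 0.274 TPM and 0.344 TPM, and the exact interval of the log2 ratio, -2.52 to 1.35, allows a difference of more than 2-fold either way. Most of its relatives were higher. Gnai2, an inhibitory G protein subunit of many cells, was 4093 times Gnat3 by TPM in replicate 1 and 2790 times in replicate 2. Gnat2, the cone transducin and the closest relative with 72.5% identical coding bases, had 2.05 and 2.01 TPM. Gnat1, the rod transducin, was called lower in replicate 1, on 1 count against 10 in replicate 2, a call lost in edgeR's exact test at the common dispersion of both libraries (adjusted p = 0.9165).

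Trpm5 (ENSMUSG00000009246.10, chr7:143069153-143094642, minus strand), the calcium-gated cation channel at the end of the cascade, was 63.2 times Gnat3 by TPM in replicate 1 and 37.8 times in replicate 2. It stood at 8.22 TPM in replicate 1, with bounds of 7.82 and 9.05, and at 6.81 TPM in replicate 2, with bounds of 6.37 and 7.73. The counts were 1094 and 840. Replicate 1 was higher and the bounds did not overlap. The log2 ratio of 0.35, with an exact interval of 0.22 to 0.48, had an adjusted p of 6.924e-07 in the exact binomial test and is under 2-fold. Trpm5 was 3.37 times Dclk1 in replicate 1 and 3.12 times in replicate 2, and it was 11.7 times Pou2f3 in replicate 1 and 10.01 times in replicate 2.

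Part of the Trpm5 level lay on transcripts with a retained intron and no annotated coding sequence. Trpm5-201, the full coding form, had 5.36 TPM in replicate 1 and 4.06 TPM in replicate 2, or 65.3% and 59.6% of the gene. The 4 retained-intron transcripts that had reads summed to 2.78 TPM and 2.36 TPM, or 33.95% and 34.66% of the gene. How many reads belong to each form is an estimate. Trpm5 overlaps Tssc4, a gene on the opposite strand at 99.6 TPM in replicate 1 and 76.01 TPM in replicate 2. Whether counting used the strand is not given in the sources used here, but only Trpm5-206, with 0 counts in both libraries, and 3 bases of Trpm5-204, with 1 and 6 counts, lie over exons of Tssc4. Trpm5-201 has no exonic base in common with it.

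The partners of Gnat3 and Trpm5 in the cascade were uneven. Of 18 found, 6 reached 1 TPM in both libraries and 4 had 0 counts in both, namely the bitter receptors Tas2r105, Tas2r108 and Tas2r131 and the regulator Rgs21, for which 0 counts allows up to 3 counts per library. The highest were genes used by many cells: the G protein subunit Gnb1 with 563 TPM in replicate 1 and 491 TPM in replicate 2, Trpm4 with 136 and 111 TPM, and the calcium release channel Itpr3 with 43.2 and 50.3 TPM. Trpm4, the closest relative of Trpm5 with 53.2% identical coding bases, was 16.5 times Trpm5 in replicate 1 and 16.3 times in replicate 2. Plcb2, the phospholipase C of taste cells, had 3.27 TPM in replicate 1 and 3.0 TPM in replicate 2, while Gng13, the gamma subunit of gustducin, had 0.43 TPM and 0.16 TPM from 8 and 3 counts.

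The receptors of the list differed in level. Sucnr1, the succinate receptor of tuft cells of the small intestine, had 0.20 TPM in replicate 1 and 0.24 TPM in replicate 2, from 10 and 12 counts. Tas1r3, a sweet and umami receptor subunit, had 1.87 TPM and 2.30 TPM, while its partners Tas1r1 and Tas1r2 had 5 and 0 counts in replicate 1 and 2 and 8 counts in replicate 2. Ffar3, a receptor of short-chain fatty acids, had 3.39 TPM in replicate 1 and 1.40 TPM in replicate 2. It was the 1 gene of the list called, higher in replicate 1, with a log2 ratio of 1.18 and an adjusted p of 8.999e-09 in the exact binomial test, where 2.48% of all genes tested were called higher in replicate 1. The Ffar3 call was lost in edgeR's exact test, with an adjusted p of 1. Plcb2, Gng13, Sucnr1, Tas1r1, Tas1r2 and Tas1r3 were named after their values were seen.

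Avil (ENSMUSG00000025432.7, chr10:127000709-127020994, plus strand) encodes advillin, a villin-like protein that bundles actin in the long microvilli of the tuft. It stood at 1.00 TPM in replicate 1, with bounds of 0.882 and 1.95, and at 1.36 TPM in replicate 2, with bounds of 1.15 and 2.28. The counts were 91 and 115, and the log2 ratio of -0.37 had an exact interval of -0.78 to 0.04. Replicate 1 was the lower library and the bounds overlapped. The estimate lay near the lower bound in both libraries, and the posterior mean, a second estimate in the deposited tables, was 1.35 TPM and 1.68 TPM. Nearly all counts lay on Avil-201, with 90 in replicate 1 and 113 in replicate 2, at 0.87 TPM and 1.11 TPM. The short Avil-204 took 0.13 and 0.25 TPM from 1 and 2 counts.

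Villin and its other relatives stood far above advillin. Vil1, the villin of the absorptive brush border and the closest relative with 64.1% identical coding bases, was 158 times Avil in replicate 1 and 107 times in replicate 2. Gsn, gelsolin, had 703 TPM and 754 TPM. No 76-base stretch of Avil was shared with Vil1. Avil does share 2.70% of its 76-base stretches with Tsfm, which lies over it on the opposite strand and had 38.5 TPM in replicate 1 and 39.7 TPM in replicate 2. The overlap covers 165 bases of Avil-201. If counting did not use the strand, reads of Tsfm could be among those of Avil, and this was not tested.

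Sh2d6 (ENSMUSG00000052631.10, chr6:72513641-72521707, minus strand) encodes a protein with an SH2 domain, the kind of domain that binds phosphorylated tyrosines. It stood at 14.3 TPM in replicate 1, with bounds of 13.3 and 16.3, and at 10.2 TPM in replicate 2, with bounds of 9.16 and 12.4. The counts were 503 and 340, replicate 1 was higher, and the bounds did not overlap. The log2 ratio of 0.53, with an exact interval of 0.33 to 0.74, was the widest of the members whose interval leaves out 0, with an adjusted p of 6.773e-07 in the exact binomial test. Sh2d6 was 1.74 times Trpm5 in replicate 1 and 1.501 times in replicate 2. Its levels in these libraries thus differed in the same direction as those of Trpm5.

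Most of the Sh2d6 level lay on a pair of transcripts. Sh2d6-206 had 7.69 TPM in replicate 1 and 6.14 TPM in replicate 2, with bounds of 5.55 to 10.4 and of 4.32 to 7.88. Sh2d6-201 had 5.35 TPM and 2.62 TPM, with bounds of 2.12 to 7.35 and of 0.751 to 4.30. The bounds of the libraries overlap for each of these transcripts, so neither was placed apart between the libraries. For 5 of the 6 Sh2d6 transcripts the length in the tables differs from that in GENCODE vM21, so the models used by the authors were not the same as the later ones. Sh2d7, a relative that is part of the tuft signature, had 5.07 TPM in replicate 1 and 3.65 TPM in replicate 2 and was likewise not called. Sh2d2a, the closest relative with 44.3% identical coding bases, had 0.78 TPM in each library.

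**Figure D2:**
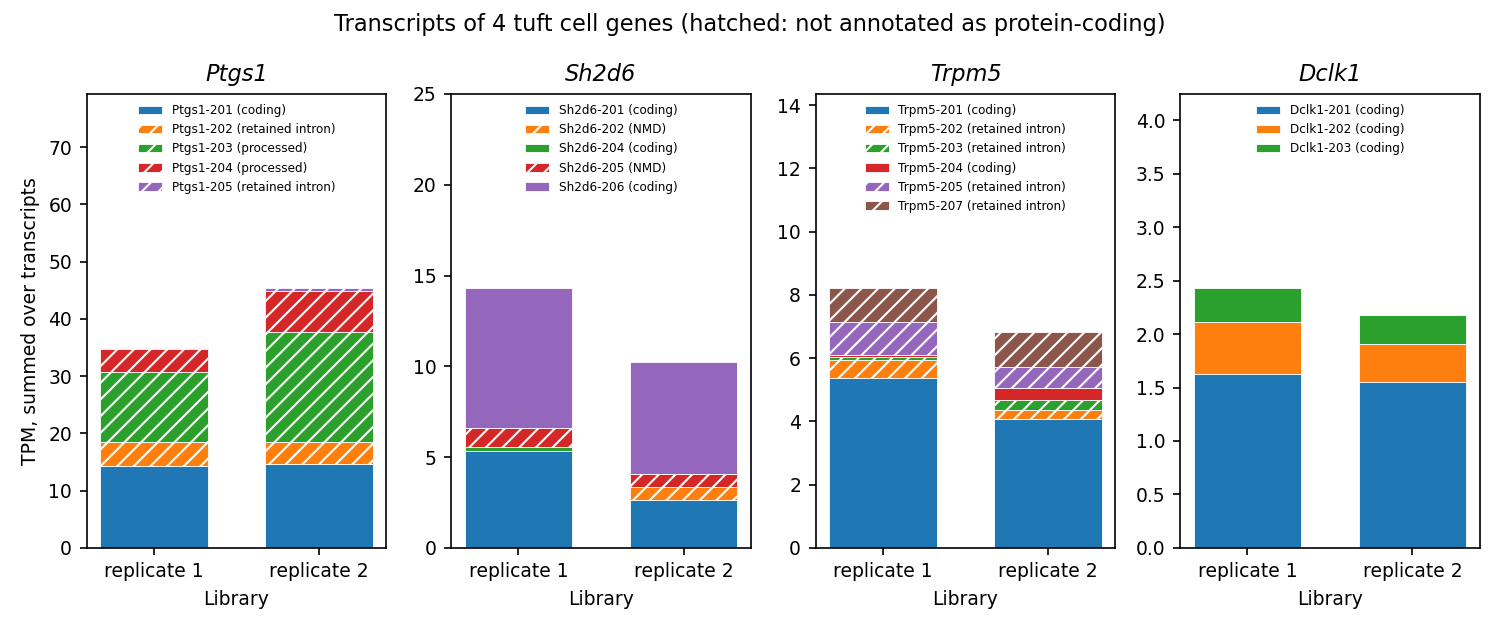
TPM of each annotated transcript with reads, stacked per library, for Ptgs1, Sh2d6, Trpm5 and Dclk1; hatched parts are transcripts not annotated as protein-coding, and each panel has its own axis from 0. In Ptgs1 the coding part is alike in both libraries at 14.3 and 14.6 TPM while the hatched part is larger in replicate 2, and in Dclk1 the long form makes up most of the bar in each library.

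Il25 (ENSMUSG00000040770.5, chr14:54932695-54935837, plus strand) encodes interleukin 25, the cytokine by which tuft cells reach group 2 innate lymphoid cells. It had 0.83 TPM in replicate 1, with bounds of 0.550 and 1.19, and 0.61 TPM in replicate 2, with bounds of 0.377 and 0.925. These values rest on 26 and 19 counts of 1 transcript, and the exact interval of the log2 ratio, -0.49 to 1.35, was too wide to place either library above the other. The remaining genes of its family were not alike. Il17d had 48.4 TPM in replicate 1 and 39.6 TPM in replicate 2, Il17a had 0 counts in both, and Il17c, an epithelial cytokine, was called higher in replicate 1, with 17 counts, against 3 in replicate 2. That call was lost in edgeR's exact test (adjusted p = 0.6984), and with a summed count of 20 the gene was not tested at a minimum of 100. By identical coding bases Il17c came first with 47.2%, but Il17f with 46.3% was too near to rank.

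In the circuit that Il25 belongs to, most receptors and signal transducers had reads, while the cytokines Il4, Il5 and Il13 had none. Of its 17 genes, 10 reached 1 TPM in both libraries. Il4, Il5 and Il13 had 0 counts in both, which allows up to 3 counts per library. Il33, a further cytokine of the list, had 1.60 TPM in replicate 1 and 1.06 TPM in replicate 2. Tslp had 0 and 3 counts, and the receptor Il13ra2 had 2 and 0. None of the 17 was called, and the median log2 ratio of the 12 tested was 0.12. The highest were Retnlb, a goblet cell product that is induced by interleukin 13, with 103 TPM in replicate 1 and 98.2 TPM in replicate 2, the signal transducer Stat6 with 71.8 and 59.7 TPM, and the growth factor Areg with 24.8 and 36.5 TPM. Il17rb, the binding subunit of the interleukin 25 receptor, had 2.14 TPM and 1.63 TPM, which is above Il25 itself, and was named after its values were seen.

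Alox5ap (ENSMUSG00000060063.6, chr5:149264767-149288153, plus strand) encodes the membrane protein that hands arachidonic acid to 5-lipoxygenase. It was the most even of the higher members, with 16.4 TPM in replicate 1, bounds of 14.7 and 17.9, and 15.3 TPM in replicate 2, bounds of 13.6 and 16.7. The counts of 385 and 359 gave a log2 ratio of 0.07 with an exact interval of -0.14 to 0.28. It stood above 72.1% of protein-coding genes. Alox5ap was 5.40 times Alox5, the lipoxygenase itself, in replicate 1 and 4.27 times in replicate 2. Ltc4s, which joins the product to glutathione to make leukotriene C4, was 2.25 times Alox5ap in replicate 1 and 1.78 times in replicate 2. Mgst3, a glutathione transferase, was the highest listed relative of any member, at 1435 TPM in replicate 1 and 1373 TPM in replicate 2. Its 45.2% of identical coding bases is too near the 44.8% of Ltc4s and the 44.5% of Mgst2 to rank these relatives.

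Ptgs1 (ENSMUSG00000047250.9, chr2:36230426-36252272, plus strand) encodes cyclooxygenase 1, which makes the precursor of prostaglandins. Its gene level was 34.9 TPM in replicate 1, with bounds of 31.2 and 38.5, and 45.4 TPM in replicate 2, with bounds of 41.3 and 48.9, above 84.7% of protein-coding genes. By TPM replicate 1 was the lower library and the bounds did not overlap. By counts the gap was small, with 1693 in replicate 1 and 1859 in replicate 2. The log2 ratio of -0.17, with an exact interval of -0.26 to -0.07, had an adjusted p of 0.001717 in the exact binomial test. The log2 ratio of TPM + 0.5 was -0.37.

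The 2 scales weigh the Ptgs1 transcripts differently, since TPM divides by length. Ptgs1-201, the coding form of 2867 bases, had 14.3 TPM in replicate 1 and 14.6 TPM in replicate 2, with bounds of 13.2 to 15.0 and of 13.5 to 15.3, which overlap. It held 81.8% of the counts in replicate 1 (exact 95% interval 79.9% to 83.6%) and 75.4% in replicate 2 (73.3% to 77.3%), but 40.8% and 32.1% of the TPM. Ptgs1-203, a processed transcript of 573 bases with no annotated coding sequence, had 12.2 TPM from 162 counts in replicate 1 and 19.2 TPM from 258 counts in replicate 2. It was the top transcript in replicate 2, with bounds of 15.58 to 22.52, above those of Ptgs1-201. In replicate 1 it was second to Ptgs1-201 by TPM, but its bounds of 8.64 to 15.67 overlap those of Ptgs1-201. The order in replicate 1 is thus not resolved. The 9 members have 32 transcripts in the tables, and 8 of the 9 kept the same top transcript in both libraries, Ptgs1 being the exception. Among the 8, Il25 and Gnat3 have only 1 transcript. The other transcript of Alox5ap has an effective length of 0 and could take no reads. For these genes the top transcript could not change. Of the gene-level difference of -10.44 TPM, replicate 1 minus replicate 2, -10.15 TPM lay on Ptgs1-203 and Ptgs1-204, both non-coding. The bounds of the libraries overlap narrowly for Ptgs1-203. For Ptgs1-204 they ran from 1.05 to 6.66 TPM in replicate 1 and from 4.25 to 10.5 TPM in replicate 2. By its bounds neither transcript was thus placed apart between the libraries. Ptgs1-204 has 666 bases in the tables but 2741 in GENCODE vM21, so its TPM depends on the model used.

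Counted over coding transcripts alone, Ptgs1 no longer stood apart at the top of the members. Alox5ap then led with 16.4 TPM in replicate 1 and 15.3 TPM in replicate 2, followed by Ptgs1 with 14.3 and 14.6 TPM, Sh2d6 with 13.2 and 8.76 TPM and Trpm5 with 5.43 and 4.45 TPM. The bounds of Alox5ap-201 and Ptgs1-201 overlap in both libraries, so the order of these 2 genes is not resolved. It also depends on the transcript models. Alox5ap-201 has 852 bases in the tables but 1251 in GENCODE vM21, while Ptgs1-201 has 2867 in both. The coding transcripts of all 9 members summed to 54.4 TPM in replicate 1 and 48.1 TPM in replicate 2, so the library with the higher sum was the other one.

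The enzymes and receptors around Alox5ap and Ptgs1 were widely present. Of 16 eicosanoid genes, 12 reached 1 TPM in both libraries, none was called, and the median log2 ratio was 0.05. The highest were Lta4h, which makes leukotriene B4, with 63.0 TPM in replicate 1 and 80.1 TPM in replicate 2, the prostaglandin E2 receptor Ptger4 with 44.7 and 45.6 TPM, and Hpgd, which breaks prostaglandins down, with 42.2 and 33.4 TPM. Ptgs2, the inducible cyclooxygenase and the one relative of Ptgs1 listed, with 61.8% identical coding bases, had 2.10 TPM and 1.32 TPM, so that Ptgs1 was 16.6 times Ptgs2 in replicate 1 and 34.4 times in replicate 2. Hpgds, the prostaglandin D2 synthase of tuft and mast cells, had 0.52 TPM and 1.05 TPM from 49 and 62 counts, and was named after its values were seen.

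Alox5ap and Ptgs1 are also used by blood cells, and markers of those cells were read beside them. Of 9 macrophage and monocyte markers, 8 reached 1 TPM in both libraries, and the list summed to 492 TPM in replicate 1 and 458 TPM in replicate 2, led by C1qc, Lyz2 and C1qb. Neutrophil markers summed to 65.6 and 61.9 TPM, nearly all of it Ly6g, followed by Csf3r at 1.57 and 1.55 TPM and Mpo at 0.30 and 0.17 TPM, with S100a8 and S100a9 at 0 counts in replicate 1 and at 2 and 5 counts in replicate 2. Mast cell markers summed to 2.93 and 3.55 TPM over 7 genes, led by Tpsb2, Cma1 and Mcpt1, and Mcpt1 was called lower in replicate 1, with 7 counts, against 32 in replicate 2, a call lost in edgeR's exact test (adjusted p = 0.3852). Of that list Cpa3 and Ms4a2 had 0 counts in replicate 1. Platelet markers summed to 87.0 and 60.4 TPM, led by Pf4, Gp1bb and Itga2b, while Gp9 had 2 counts and 1 count. Macrophage markers were thus the only blood cell list present across nearly all its genes, and their part in the Alox5ap and Ptgs1 levels was not tested.

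Between the libraries, 0 of the 9 members were called by the exact binomial test, where 6.11% of the 17713 genes tested were called, 2.48% higher and 3.63% lower in replicate 1. At any fold, 3 of the 9 had an adjusted p of at most 0.05, namely Trpm5, Sh2d6 and Ptgs1, and the same 3 had an unadjusted p under 0.05. Of all genes tested, 48.9% met that adjusted p, so the members' share is not above the background. Of the 9, 5 were higher in replicate 1 and 4 lower, with a median log2 ratio of 0.07, against -0.01 over all genes tested. The median size of the ratio was 0.35 for the members and 0.23 for all genes. The exact binomial test covers counting error alone. In edgeR's exact test the common dispersion, a biological coefficient of variation of 0.271, was estimated from these same libraries taken as repeats. The difference between the libraries thus counts as spread there. Trpm5, Sh2d6 and Ptgs1 did not keep an adjusted p under the threshold in that test. A gene not called in that test, or a call lost in it, is not shown to be alike in both libraries.

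**Figure D3:**
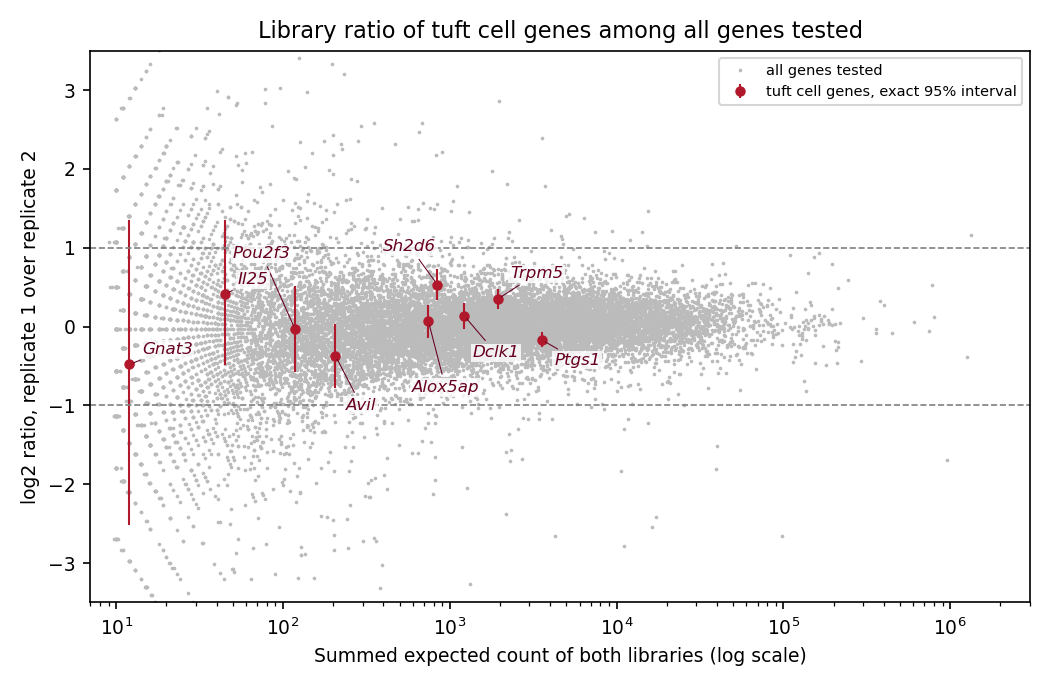
Log2 ratio of scaled counts, replicate 1 over replicate 2, against the summed count of both libraries on a log axis, with grey points for all genes tested and red points for the tuft cell genes with their exact 95% intervals; 207 genes past 3.5 on either side are not drawn. All 9 members lie between the dashed lines of a 2-fold difference, and the intervals of Gnat3 and Il25, with the fewest counts, cross a line.

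Other genes known from tuft cell signatures were mostly detected too. Of 28 found, 25 reached 1 TPM in both libraries, none was called, and the median log2 ratio was 0.09. The highest were Ethe1, a mitochondrial sulfur enzyme, with 712 TPM in replicate 1 and 695 TPM in replicate 2, the epithelial keratin Krt18 with 327 and 383 TPM, and the surface protein Cd24a with 384 and 249 TPM. These 3 are also used by many other epithelial cells. Chat, which makes acetylcholine and was chosen after its values were seen, had 1.01 TPM in replicate 1 and 0.88 TPM in replicate 2.

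Set against markers of goblet cells, colonocytes, enteroendocrine cells and smooth muscle, the tuft cell genes were a small share. Their sum equalled 0.268% of that of the 7 goblet cell markers in replicate 1 and 0.247% in replicate 2, and 0.424% and 0.402% of that of the 7 absorptive colonocyte markers. Goblet markers were led by Muc2, Spink4 and Tff3, and colonocyte markers by Lypd8, Guca2a and Car1, and none of either list was called. Against the 8 enteroendocrine markers, another rare epithelial type, the members came to 3.23% and 3.73%, and Pyy made up most of the marker sum, followed by Insl5 and Sst. Chgb was the 1 enteroendocrine gene called, at 35.0 TPM in replicate 1 and 16.8 TPM in replicate 2, and that call was lost in edgeR's exact test, with an adjusted p of 1. Smooth muscle markers, led by Acta2, Tagln and Actg2, summed to 6977 and 6891 TPM, and fibroblast markers, led by Col3a1, Col1a2 and Dcn, to 480 and 568 TPM, with none called. These sums depend on which genes each list holds and do not give numbers of cells.

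**Figure D4:**
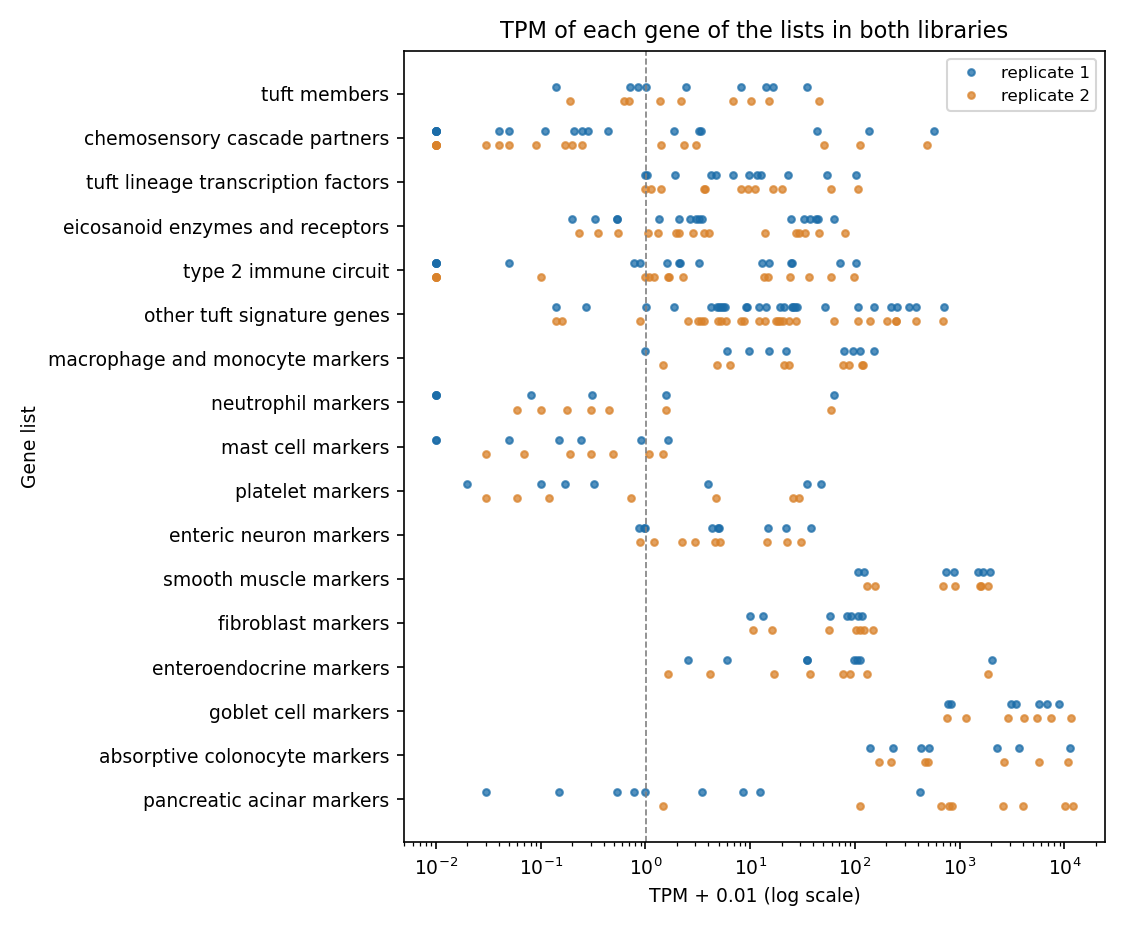
TPM + 0.01 of each gene of the lists on a log axis, 1 row per list and 1 colour per library, with the dashed line at 1 TPM. The list of member paralogs is not drawn, and genes with 0 counts sit at the left edge. The tuft cell genes lie between 0.13 and 45.4 TPM, below every goblet and colonocyte marker drawn, and the libraries lie farthest apart in the pancreatic acinar row.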

How the data were processed

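Polyadenylated RNA of mouse colon was measured in 2 libraries of 1 group, and replicate numbers come from the labels. The gene and transcript tables of the mm10 assembly with GENCODE M4 were used, 1 library per table, per the deposited file notes. The authors deposited expected counts (reads per feature by estimation, not normalized), TPM, FPKM, lower and upper TPM bounds on the same scale whose level is not stated, and the percent of a gene's abundance given to each transcript. Which aligner and quantifier were run, and whether strand was used, is not given in the sources used here.

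Of 69691 features, 43346 were Ensembl genes, and 42462 took a symbol, biotype and coordinates from GENCODE vM21 by identifier without version. Depth was 46689262 expected counts in replicate 1 and 45966841 in replicate 2. Counts were rounded and compared by a doubled exact binomial tail with library sizes scaled by edgeR 4.0.16 (TMM), over the 17713 genes whose counts summed to 10 or more, with Benjamini-Hochberg adjustment over all of them. A gene was called when its adjusted p was 0.05 or less and its log2 ratio, with 0.5 added to each count, was 1 or more in size. Testing one library against the other leaves no residual degrees of freedom for a quasi-likelihood fit. Intervals are exact at 95% and, like the limit of 3 counts that a count of 0 allows, cover counting error only. Statistics were run in Python 3.11.15 with scipy 1.17.1 and in R 4.3.3, with DESeq2 1.42.0 for an alternative scaling.

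The members and gene lists were chosen with earlier results of these data known. The text names all 9 members, the 3 highest genes of each other list, every listed gene called and the closest relative of each member, and marks most others as named after their values were seen; other genes named beside a member were likewise added afterwards. Closeness was meant to be protein identity, but no protein table was at hand, so identical bases in a global alignment of coding sequences were used, a measure that does not rank relatives a point or less apart. Promoter windows are from RefSeq (GRCm38.p6) and coding stretches from GENCODE vM21. Gene pairs on opposite strands are uncertain where their exons overlap. Irag2 and Pou2af2 were listed but matched no symbol. Both genes were still measured, as their older symbols, Lrmp and 1810046K07Rik, were listed too and were found. Splice junction and contig files on mm9 were not used here.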

Additional observations from a re-analysis of the deposited data

How the results depend on the processing

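Of 134 alternative values, 127 kept their direction and their side of the threshold, or stayed within 1 SD or 1.5 times of the reported value. For a member's ratio the threshold is that of a call, which also asks for 2-fold, so a change in adjusted p alone does not show. In edgeR's exact test Trpm5, Sh2d6 and Ptgs1 no longer had an adjusted p under 0.05, yet they are among the 127. For levels and shares, a value with 1 library left out always lies within 1 SD of the mean of both libraries. Those values are among the 127 but could not have moved, so they say nothing on stability. The count of genes called between the libraries, 1083, was 414 with a summed count of at least 100, 239 in edgeR's exact test and 611 for TPM + 0.5 past 2-fold with no test. For the fixed lists, 14 calls became 9 in edgeR's exact test, and the 9 were the pancreatic acinar genes, lower in replicate 1. The members' summed level of 80.8 TPM was 63.3 in FPKM and 51.2 over protein-coding transcripts alone, an alternative chosen after seeing the data. The log2 ratio of Pou2f3 was 0.0242 for TPM + 0.5 in place of -0.03. FPKM and TPM differ by the same factor for every gene of a library, so the FPKM shift is a change of unit. The cause of the other shifts was not tested. No member was called under any alternative that gave a call, though Il25 and Gnat3 fell under a summed count of at least 100 and went untested there. Of the 9 members, 8 reached 0.5 TPM, 4 reached 5 TPM and 5 had a lower bound of at least 1 TPM in both libraries. Without replicate 1 or without replicate 2, the summed level ranged from 78.96 to 82.68 TPM, 6 members reached 1 TPM in each case, and the share of goblet markers ranged from 0.247% to 0.268%. By TPM Ptgs1 changed its leading transcript with the library left out, though in replicate 1 the bounds of Ptgs1-201 and Ptgs1-203 overlap. No paired analysis was possible because there is only 1 group, so replicate numbers pair nothing. Depth limits Gnat3 and Il25 most.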
